A study of Rattus norvegicus with 12 samples.

Results

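The ovaries of letrozole-treated rats with polycystic ovary syndrome (PCOS) were compared with those of untreated control rats, gene by gene, in 8 of the 12 RNA-seq libraries of the study. The libraries were chosen by their labels alone, as the 4 control and the 4 PCOS libraries, with 1 library per rat. Genes were kept if their mean over these 8 libraries was at least 1 FPKM (fragments per kilobase of transcript, scaled to the mapped fragments of the library), which held for 13491 of the 19730 genes in the table. The last gene inside this limit was Prkcq, with a mean of 1.00016 FPKM, and the first outside it was XLOC_130024, with 0.998852 FPKM. All rats were wild type Sprague Dawley females at postnatal week 15. PCOS rats had been given letrozole, an aromatase inhibitor, for 30 days together with a high-fat diet, and had been kept in the group only if their vaginal smears stayed in metestrus or diestrus. Control rats had been given neither and ate standard chow, and no vehicle is stated for them. The 4 other libraries came from rats treated like the PCOS group and then given mogroside V, and are not compared here. In the paper's schedule, letrozole and the diet ended before the 30 days of mogroside V began, and all rats were killed after that period. The PCOS ovaries were thus taken about 30 days after the last letrozole dose. No group had letrozole alone or the diet alone, so drug and diet cannot be told apart. The estrous stage of the control ovaries is not given in the sources used here.

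In the ovary, theca cells around the follicle turn cholesterol into androgens under luteinizing hormone, and granulosa cells inside the follicle turn these androgens into estrogens with aromatase. After ovulation both cell types become luteal cells, which make progesterone in a corpus luteum that depends on a dense capillary bed. Letrozole blocks aromatase, and rats treated with it are known for arrested follicles, high androgen and few corpora lutea.

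The libraries were close in size. Their FPKM summed to between 339830 and 373758, and the steps between low FPKM values of genes with 1 transcript put the deepest at about 1.18 times the fragments of the shallowest. The ovary markers Star, Inha and Foxl2 were expressed in all 8. The correlation of log2(FPKM + 1) was 0.972 to 0.979 between PCOS libraries, 0.917 to 0.975 between control libraries and 0.880 to 0.919 between the groups. Control 3 stood apart from the other control libraries on the second principal component, at -43.85 against -0.08 to 33.25. The summed FPKM of 8 ciliated and secretory oviduct genes was 7.02, 10.7, 127 and 28.7 in Control 1 to 4 and 10.8, 9.02, 6.85 and 8.6 in PCOS 1 to 4, so Control 3 held most of this signal. The epithelial keratin gene Krt18 showed the same library apart, with 0.798, 1.96, 38.1 and 3.01 FPKM in Control 1 to 4 and 0.967, 1.42, 0.529 and 0.622 FPKM in PCOS 1 to 4. The fit was repeated without this library, and values without it are given where they end a call or move a called value by more than 1.5 times.

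**Figure D1:**
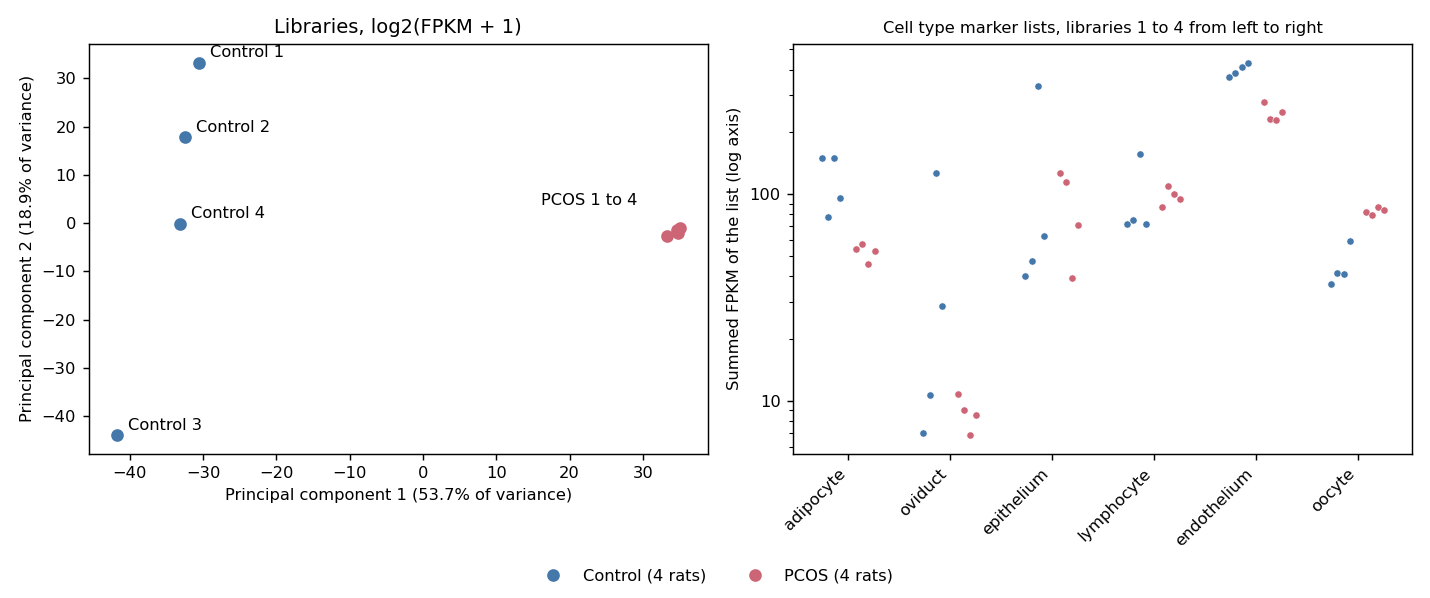
Left, the 8 libraries on the first and second principal components of log2(FPKM + 1) over 13491 genes, with blue points for control and red points for PCOS rats. Right, the summed FPKM of 6 cell type marker lists in each library on a log axis, where Control 3 is the highest point for the oviduct, epithelium and lymphocyte lists and the endothelial sums of the groups do not overlap. Of the lymphocyte sum of 157 FPKM in Control 3, the single gene Jchain gave 95.9 FPKM, against 10.2 to 11.9 FPKM in the other controls.

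Between the groups, 3694 genes (27.4% of those tested) differed with limma at a Benjamini-Hochberg adjusted p under 0.05. Of these, 1610 genes (11.9%) were higher and 2084 (15.4%) were lower in PCOS. The 4 PCOS values lay wholly above or below the 4 control values for 4191 genes (31.1%). Most changes were moderate: the median log2 fold change was 0.63 among the higher and -0.61 among the lower genes, and 444 higher and 472 lower genes changed by at least 1 on the log2 scale. Fold changes are differences of mean log2(FPKM + 1), PCOS minus control, a scale on which weakly expressed genes appear to change less than they do. The higher genes took 10.3% to 11% of the summed FPKM in the control libraries and 20.9% to 22.0% in the PCOS libraries. The lower genes took 21.5% to 22.1% in the control and 11.2% to 12.3% in the PCOS libraries. Differences were called in 20.2% of genes with a mean of 1 to 5 FPKM and in 38.0% of the 537 genes with at least 100 FPKM. The gene lists below are described by the number of their tested members past this threshold, to be read beside these shares of all genes. In whole ovary RNA, fewer cells of a type and less RNA per cell cannot be told apart.

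**Figure D2:**
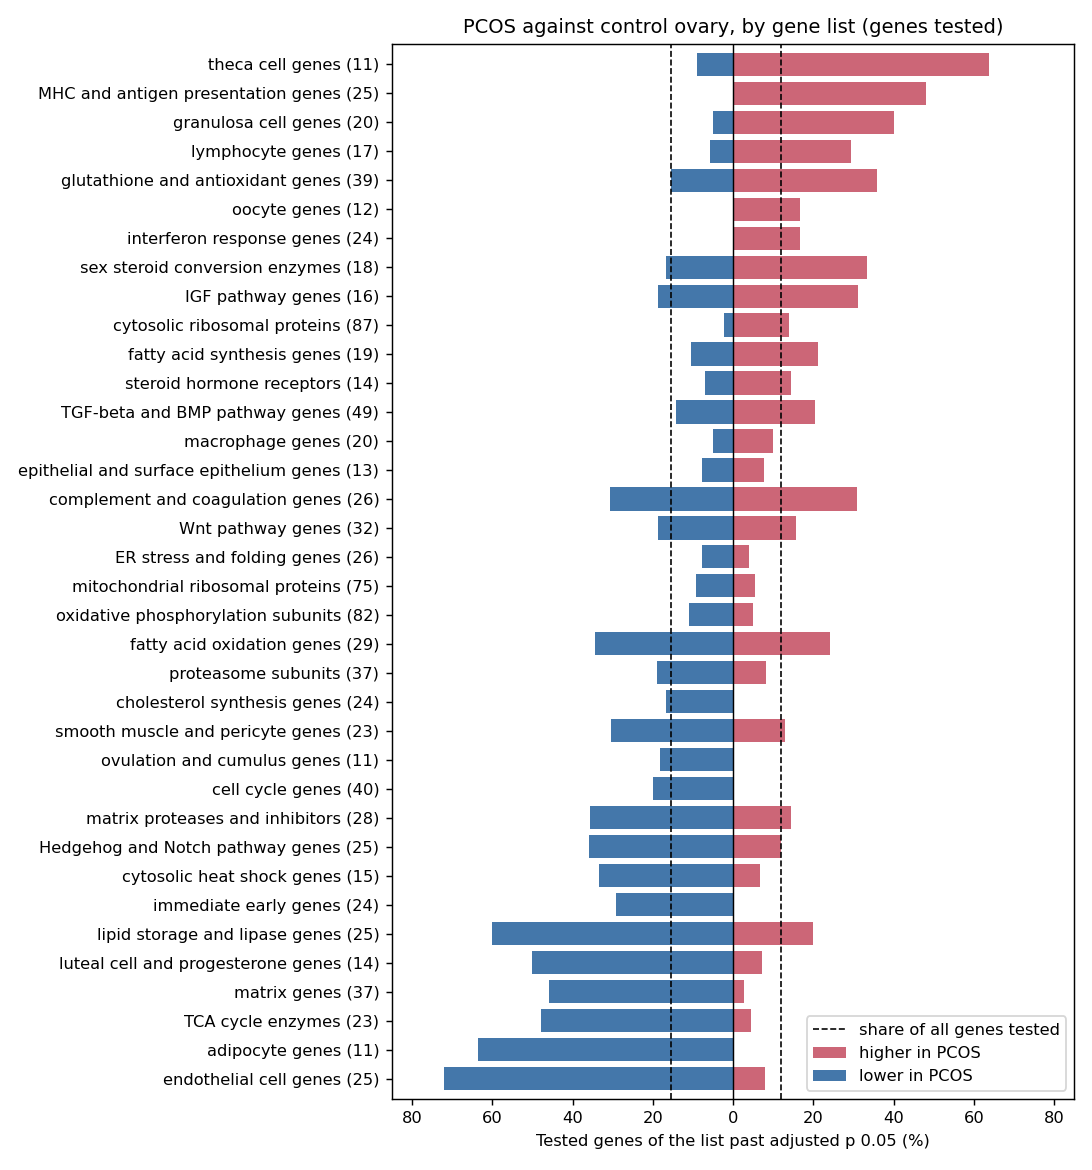
Share of the tested genes of each list that were higher (red, to the right) or lower (blue, to the left) in PCOS than in control ovaries with limma at an adjusted p under 0.05, with the number tested in parentheses. Dashed lines mark the shares of all genes tested, 11.9% higher and 15.4% lower, with the theca list at 63.6% higher and the endothelial list at 72.0% lower.

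Genes of androgen-producing theca cells were higher in PCOS ovaries. Of 11 tested theca genes, 7 were higher and 1 was lower, with a median log2 fold change of 0.67, where the median of all genes was -0.03. Cyp17a1 (ENSRNOG00000020035, chromosome 1 from 266422132 to 266428239 in the deposited coordinates), whose enzyme makes androgens from progesterone and pregnenolone, was 63.6, 27.3, 17 and 30.7 FPKM in Control 1 to 4 and 1866, 1054, 655 and 1187 FPKM in PCOS 1 to 4. The lowest PCOS value was 10.3 times the highest control value, while the PCOS values themselves varied 2.85-fold (log2 fold change 5.12, standard error 0.41, adjusted p = 6.16e-05). Nr5a1, which encodes the steroidogenic factor SF-1 and was picked out after its values were seen, was 47.4, 55.8, 59.1 and 53.2 FPKM in Control 1 to 4 and 108, 113, 105 and 123 FPKM in PCOS 1 to 4. Every PCOS value was above every control value, and both groups were narrow (log2 fold change 1.04, standard error 0.09, adjusted p = 7.58e-05). The theca and stroma genes Aldh1a1, a retinaldehyde dehydrogenase (log2 fold change 1.33, standard error 0.32, adjusted p = 0.0149), and Nr2f2, a nuclear receptor of theca and stroma (log2 fold change 0.67, standard error 0.09, adjusted p = 8.93e-04), were higher as well. Targets of the Hedgehog signal that granulosa cells send to theca cells were measured as well. Ptch1, a Hedgehog receptor, fell by 0.43 (standard error 0.12, adjusted p = 0.0293), a call lost without Control 2, Control 3, Control 4, PCOS 2, PCOS 3 or PCOS 4. Gli1, a transcription factor induced by the pathway, was 1.09 to 1.99 FPKM in the control and 1.8 to 2.82 FPKM in the PCOS libraries and did not pass (log2 fold change 0.39, standard error 0.16, adjusted p = 0.10). With single libraries left out it passed in 1 fit, and its log2 fold change ran from 0.30 to 0.49.

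The luteal genes moved the other way. Of 14 tested luteal and progesterone genes, 7 were lower and 1 was higher, with a median of -0.96. Star, which carries cholesterol into the mitochondrion at the start of steroid synthesis, was 2793, 2309, 1909.8 and 1864 FPKM in Control 1 to 4 and 1151, 462, 550.4 and 699 FPKM in PCOS 1 to 4. Its lowest control value was above its highest PCOS value (log2 fold change -1.7, standard error 0.27, adjusted p = 0.00232). Cyp11a1, the side-chain cleavage enzyme that follows, fell by 1.14 on the log2 scale (standard error 0.28, adjusted p = 0.0157), although the lowest control library, Control 3 at 1307 FPKM, lay close to the highest PCOS library at 1201 FPKM. Scarb1, which takes up cholesterol from high-density lipoprotein, fell by 1.34 (standard error 0.34, adjusted p = 0.0185), and this call was lost without Control 2 or PCOS 3. Fdx1, the electron donor of the side-chain cleavage enzyme, named after its values were seen, fell by 1.51 (standard error 0.29, adjusted p = 0.00537). The largest fall in the list was that of Akr1c3 (ENSRNOG00000017531), the table's name for the enzyme that inactivates progesterone in the regressing corpus luteum. It was 833, 1658, 3428 and 2305 FPKM in Control 1 to 4 and 386, 221, 459.7 and 254 FPKM in PCOS 1 to 4. The controls spread 4.11-fold and still did not overlap the PCOS values (log2 fold change -2.52, standard error 0.42, adjusted p = 0.00276). Ptgfr, the receptor of the luteolytic prostaglandin, was 45.7 to 152 FPKM in the control and 13.9 to 31.8 FPKM in the PCOS libraries (log2 fold change -2.07, standard error 0.41, adjusted p = 0.00676). Lhcgr, the luteinizing hormone receptor of theca, luteal and mature granulosa cells, was the exception. It was 78.2, 58.5, 28.7 and 70.4 FPKM in Control 1 to 4 and 199, 148, 113 and 138 FPKM in PCOS 1 to 4, higher in every PCOS library (log2 fold change 1.39, standard error 0.31, adjusted p = 0.0103). Prlr, the prolactin receptor, was 88.6 to 119 FPKM in the control and 94.4 to 123 FPKM in the PCOS libraries, with overlapping groups (adjusted p = 0.634 from limma). The number higher was 2 without PCOS 3.

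Granulosa genes were higher more often than lower, 8 against 1 of 20, with a median of 0.29. Cyp19a1, which encodes aromatase, the enzyme that letrozole inhibits, was 16.6, 19.6, 14.2 and 16.5 FPKM in Control 1 to 4 and 67.6, 53, 63.2 and 50.1 FPKM in PCOS 1 to 4. The groups were far apart and narrow, with a rise of 1.74 on the log2 scale (standard error 0.12, adjusted p = 3.62e-05). Inhba, the beta A subunit shared by activin A and inhibin A, was 85.9, 80.9, 100.1 and 127 FPKM in Control 1 to 4 and 300.0, 237, 216 and 259 FPKM in PCOS 1 to 4. Its lowest PCOS value was above its highest control value (log2 fold change 1.36, standard error 0.16, adjusted p = 4.16e-04). Inha, the inhibin alpha subunit, rose by 0.72 (standard error 0.15, adjusted p = 0.00808), and Fshr, the receptor of follicle-stimulating hormone, rose by 0.90 (standard error 0.20, adjusted p = 0.0106). Gja1, the gap junction protein that couples granulosa cells, named after its values were seen, rose from a range of 233 to 333 FPKM in the control to one of 419 to 602 FPKM in the PCOS libraries (log2 fold change 1.0, standard error 0.16, adjusted p = 0.00191). Nr0b1, which encodes DAX-1, a repressor of SF-1, rose most, with 1.92, 4.35, 2.62 and 6.49 FPKM in Control 1 to 4 and 27.9, 62.6, 43.4 and 28.9 FPKM in PCOS 1 to 4. The lowest PCOS value was 4.29 times the highest control value (log2 fold change 3.12, standard error 0.34, adjusted p = 3.06e-04). The activin-binding protein gene Fst was the member that fell, by 0.74 (standard error 0.15, adjusted p = 0.00711). With single libraries left out, the number lower was 2 without Control 3 or PCOS 1 and 3 without PCOS 2. Foxl2 (44.6 to 72.4 FPKM in the control and 58.9 to 81.7 FPKM in the PCOS libraries), Amh (34 to 71.7 FPKM in the control and 18.7 to 45.6 FPKM in the PCOS libraries) and Hsd17b1 (36.4 to 62.8 FPKM in the control and 27.1 to 51.3 FPKM in the PCOS libraries) gave overlapping groups and did not pass (adjusted p = 0.307, 0.0737 and 0.476 from limma). Amh passed in 1 fit with a library left out.

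**Figure D3:**
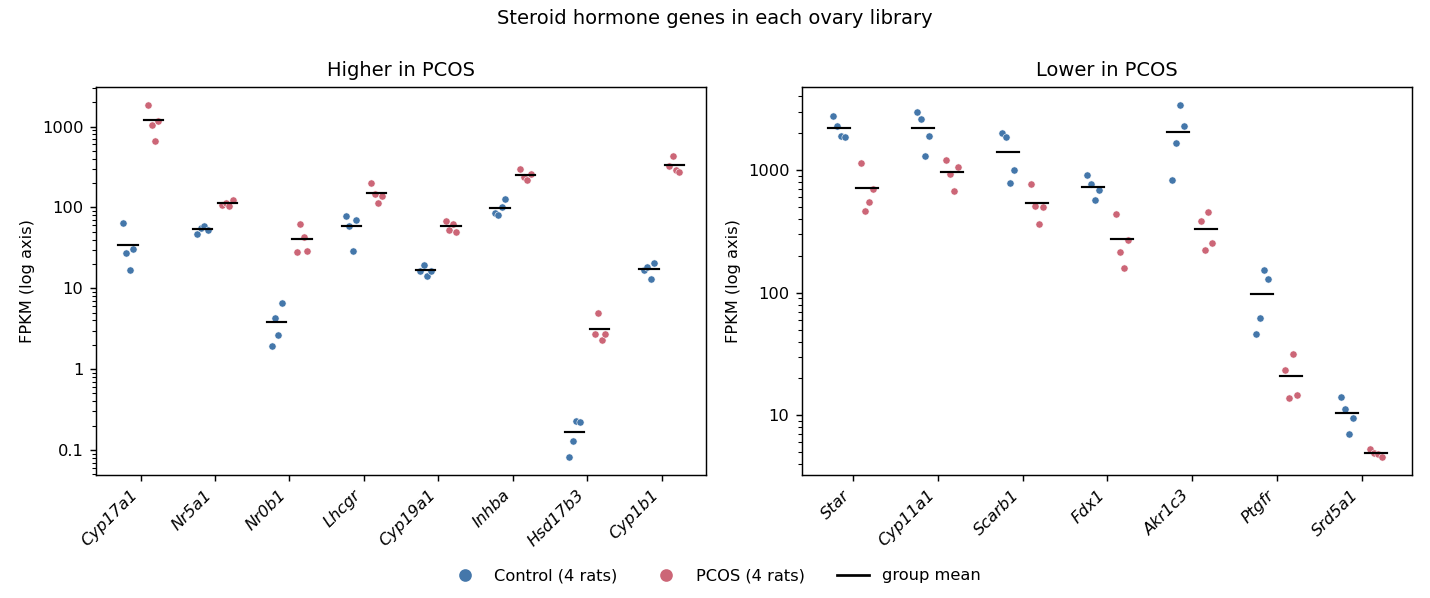
FPKM on a log axis of 8 steroid hormone genes higher in PCOS (left) and 7 lower in PCOS (right), with 1 point per rat, blue for control and red for PCOS, and a black bar for the group mean. For each of the 15 genes the 4 values of one group lie wholly above those of the other.

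Few oocyte genes passed the test. Of 12 tested, 2 were higher and none was lower with limma (0 at an unadjusted p under 0.05), the median being -0.10. Their summed FPKM was 36.8, 41.7, 41.2 and 59 in Control 1 to 4 and 82, 79.4, 86.2 and 83.9 in PCOS 1 to 4, with the PCOS sums above all control sums, mostly through Kit and Ooep. Gdf9, Bmp15, Zp2 and Zp3, which encode oocyte growth factors and proteins of the egg coat, gave log2 fold changes of -0.30, -0.33, -0.14 and -0.15, all with overlapping groups. Ooep, an oocyte protein gene, was 3.4, 2.94, 2.24 and 5.35 FPKM in Control 1 to 4 and 10.2, 9.16, 15.4 and 11.4 FPKM in PCOS 1 to 4, above all controls in each PCOS library (log2 fold change 1.51, standard error 0.22, adjusted p = 0.00135). Kit, the stem cell factor receptor, which theca and stromal cells also express, rose from a range of 6.7 to 13.8 FPKM in the control to one of 42 to 46 FPKM in the PCOS libraries (log2 fold change 2.06, standard error 0.21, adjusted p = 2.19e-04). Of 11 genes of ovulation and the cumulus, 2 (18.2%) were lower, close to the 15.4% of all genes. None of the 11 was higher with limma (0 at an unadjusted p under 0.05). Runx2, a transcription factor induced at ovulation, was 56.3, 45, 28.7 and 40.2 FPKM in Control 1 to 4 and 5.88, 5.44, 10.3 and 5.68 FPKM in PCOS 1 to 4. The lowest control was 2.79 times the highest PCOS library (log2 fold change -2.48, standard error 0.23, adjusted p = 1.44e-04). Adamts1, a protease that cleaves versican at ovulation, fell by 1.33 (standard error 0.30, adjusted p = 0.0111). Pgr, the progesterone receptor, was 0.213, 0.52, 13 and 0.567 FPKM in Control 1 to 4 and 0.227, 0.11, 0.0903 and 0.165 FPKM in PCOS 1 to 4, so that Control 3 alone was above 1 FPKM (adjusted p = 0.264 from limma). Tnfaip6, a hyaluronan-linking protein of the cumulus, was high in the same library, at 9.76 FPKM against 1.13 to 1.22 FPKM in the other controls and 1.54 to 2.0 FPKM in PCOS. Its log2 fold change was -0.24 with all libraries (adjusted p = 0.748) and 0.33 without Control 3, where it passed the threshold. The number of lower genes in this list was 4 without Control 1, and of higher genes 1 without Control 3.

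Enzymes that convert sex steroids and glucocorticoids changed in both directions. Of 18 tested, 6 were higher and 3 were lower. Cyp1b1 (ENSRNOG00000040287, chromosome 6 from 2307808 to 2316722), which hydroxylates estradiol, was 16.9, 18.1, 13.1 and 20.7 FPKM in Control 1 to 4 and 329, 431, 289 and 276 FPKM in PCOS 1 to 4. The lowest PCOS value was 13.3 times the highest control value (log2 fold change 4.18, standard error 0.17, adjusted p = 5.11e-06). Hsd11b1, which regenerates active glucocorticoid, was 14, 11.2, 13 and 9.41 FPKM in Control 1 to 4 and 89, 79.8, 65.9 and 80.6 FPKM in PCOS 1 to 4. The groups did not come close (log2 fold change 2.63, standard error 0.13, adjusted p = 7.98e-06). Hsd17b3, the enzyme of testosterone synthesis best known from Leydig cells, was 0.0814, 0.129, 0.231 and 0.221 FPKM in Control 1 to 4 and 2.69, 4.91, 2.29 and 2.75 FPKM in PCOS 1 to 4. It was near 0 in every control and well above it in every PCOS library (log2 fold change 1.8, standard error 0.19, adjusted p = 2.63e-04). Srd5a1, the 5-alpha-reductase that makes dihydrotestosterone, fell by 0.92 (standard error 0.17, adjusted p = 0.00466). The number of lower genes in this list was 1 without Control 1, Control 2, PCOS 3 or PCOS 4. Among the hormone receptors, Esr2, the estrogen receptor of granulosa cells, rose by 0.69 (standard error 0.20, adjusted p = 0.0317), with 1 control above the lowest PCOS value and the call lost without Control 1, Control 2, Control 3, PCOS 1, PCOS 2, PCOS 3 or PCOS 4. Esr1, the estrogen receptor of theca and stroma, was 7.15, 7.57, 39 and 12.7 FPKM in Control 1 to 4 and 36.5, 34.7, 23.4 and 29.5 FPKM in PCOS 1 to 4. The other controls lay below every PCOS library and Control 3 above every one of them, and the difference did not pass with all 8 libraries (adjusted p = 0.0935 from limma) but did without Control 3, with a log2 fold change of 1.68 in place of 1.18.

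Lipid genes changed in both directions. No gene of cholesterol synthesis was higher with limma (0 at an unadjusted p under 0.05) and 4 of 24 were lower, although the median was -0.65, and the number lower was 8 without Control 3 or PCOS 1. Hmgcs1, an early enzyme of the pathway, was 212, 237, 71.3 and 123 FPKM in Control 1 to 4 and 184, 31.4, 31.9 and 92.8 FPKM in PCOS 1 to 4. The PCOS values differed among themselves by 5.87-fold and overlapped the controls (adjusted p = 0.197 from limma), as did those of Sqle, the squalene epoxidase. PCOS 1 was the highest PCOS library for both of these genes.

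Of 25 genes of lipid storage and lipolysis, 15 were lower and 5 were higher. Plin2, the coat protein of lipid droplets in steroid-producing cells, was 99.98, 136, 115 and 129 FPKM in Control 1 to 4 and 29.6, 33.9, 41 and 32.9 FPKM in PCOS 1 to 4. The lowest control was 2.44 times the highest PCOS value (log2 fold change -1.77, standard error 0.13, adjusted p = 3.46e-05). Lpl, lipoprotein lipase, fell by 1.06 (standard error 0.19, adjusted p = 0.00342), and Hilpda, a lipid droplet protein induced by low oxygen and named after its values were seen, fell by 1.58 (standard error 0.08, adjusted p = 9.13e-06). Fabp3 (ENSRNOG00000012879), a fatty acid-binding protein of heart and muscle, was 31.6, 39.5, 39.2 and 45.5 FPKM in Control 1 to 4 and 339, 299.9, 319 and 417 FPKM in PCOS 1 to 4. It rose by 3.11 on the log2 scale with no overlap (standard error 0.14, adjusted p = 5.11e-06). Abca1, which exports cholesterol to apolipoprotein, rose by 1.27 (standard error 0.17, adjusted p = 9.18e-04), and G0s2, an inhibitor of the main triglyceride lipase, by 1.42 (standard error 0.23, adjusted p = 0.00211). Adipocyte markers, of which 6 tested genes are also on this list, were mostly lower. Fabp4 was 27.5, 8.85, 23.6 and 12 FPKM in Control 1 to 4 and 1.8, 2.87, 1.28 and 2.66 FPKM in PCOS 1 to 4, and Adipoq, which encodes adiponectin, was 15.3, 3.68, 26 and 7.93 FPKM in Control 1 to 4 and 0.654, 2.95, 1.4 and 1.07 FPKM in PCOS 1 to 4. The summed FPKM of the 11 tested adipocyte genes was 149, 77.5, 149 and 95.5 in Control 1 to 4 and 54, 57.1, 45.9 and 52.9 in PCOS 1 to 4, and 7 of them were lower (4 without Control 1, PCOS 1, PCOS 3 or PCOS 4). Of the 19 lipid storage genes that are not on the adipocyte list, 10 were lower and 5 higher. The part of adipose tissue in these 19 and in the other 6 was not tested.

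Fads1 and Fads2, desaturases of polyunsaturated fatty acids, rose, while Scd, a desaturase of saturated fatty acids, fell. Fads1 was 73.7, 47.5, 23.6 and 26.1 FPKM in Control 1 to 4 and 283, 177, 94.5 and 175 FPKM in PCOS 1 to 4. The PCOS values varied 2.99-fold and all lay above the controls (log2 fold change 2.12, standard error 0.42, adjusted p = 0.0062). Fads2 rose by 1.71 (standard error 0.27, adjusted p = 0.00209). Scd, stearoyl-CoA desaturase, fell by 1.36 (standard error 0.30, adjusted p = 0.00985). Fasn, fatty acid synthase, did not pass, at 29.7 to 35.6 FPKM in the control and 18.3 to 40.2 FPKM in the PCOS libraries (adjusted p = 0.414 from limma). Fatty acid oxidation split as well, with 7 of 29 genes higher and 10 lower. Ppara, the nuclear receptor that induces fatty acid oxidation, rose from a range of 2.9 to 4.14 FPKM in the control to one of 9.47 to 12.2 FPKM in the PCOS libraries (log2 fold change 1.35, standard error 0.12, adjusted p = 8.76e-05). Cpt2, the inner carnitine palmitoyltransferase, fell by 1.07 (standard error 0.13, adjusted p = 5.46e-04), and the acyl-CoA synthetase genes Acsl1 and Acsl3 fell by 1.21 and 1.39, whereas Cpt1a had overlapping groups (adjusted p = 0.459 from limma).

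Enzymes of the tricarboxylic acid cycle, counted with their cytosolic forms, were mostly lower where they were called. Of 23 cycle genes, 11 were lower and 1 was higher, with a median of -0.28. Idh1, the cytosolic isocitrate dehydrogenase that supplies NADPH, was 672, 596, 335 and 513 FPKM in Control 1 to 4 and 89.5, 99.3, 123 and 102 FPKM in PCOS 1 to 4. The lowest control was 2.73 times the highest PCOS value (log2 fold change -2.31, standard error 0.21, adjusted p = 1.06e-04). Dlst and Sucla2, subunits of the 2-oxoglutarate dehydrogenase and succinyl-CoA ligase complexes, fell by 1.38 (standard error 0.14, adjusted p = 1.76e-04) and 1.11 (standard error 0.12, adjusted p = 3.14e-04). Idh3g, a subunit of the NAD-linked isocitrate dehydrogenase, rose by 0.79 (standard error 0.08, adjusted p = 2.10e-04). Cs, citrate synthase, did not pass (adjusted p = 0.165 from limma), though it did in 1 fit with a library left out. Of 82 respiratory chain and ATP synthase subunits, 4 were higher and 9 lower, which is 15.9% called against 27.4% of all genes, with a median of -0.01. The number lower was 14 without Control 3, and the number higher 1 without PCOS 2, 2 without PCOS 4 and 9 without Control 1. Cox5a, a subunit of cytochrome c oxidase, fell by 0.69 (standard error 0.11, adjusted p = 0.0021), and Ndufa5, a subunit of complex I, rose by 0.50 (standard error 0.12, adjusted p = 0.0133). Among 75 mitochondrial ribosomal proteins, 4 were higher and 7 lower. The latter number was 2 without PCOS 2, 3 without Control 1, Control 2, PCOS 3 or PCOS 4, 4 without Control 4 and 12 without Control 3, the former 2 without Control 3, Control 4, PCOS 1, PCOS 2 or PCOS 4.

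Genes of endothelial cells and of vessel growth factors, listed together, were mostly lower in PCOS ovaries. The growth factor genes on this list are Vegfa, Vegfc, Angpt1 and Angpt2, which are not markers of endothelial cells. Of 25 tested, 18 (72.0%) were lower and 2 were higher, against 15.4% and 11.9% of all genes, and the median was -0.74. Vegfa, the growth factor that drives capillaries into the corpus luteum, was 54.5, 51, 52 and 40.1 FPKM in Control 1 to 4 and 14.8, 9.59, 13.5 and 11.7 FPKM in PCOS 1 to 4. The lowest control was 2.71 times the highest PCOS value (log2 fold change -1.92, standard error 0.14, adjusted p = 4.40e-05). Its receptors were lower too, Flt1 by 1.2 (standard error 0.09, adjusted p = 5.12e-05) and Kdr by 1.15 (standard error 0.13, adjusted p = 4.13e-04). Cdh5, the cadherin of endothelial junctions, was 25.4, 28.3, 26 and 35 FPKM in Control 1 to 4 and 16, 14.7, 15.1 and 15.5 FPKM in PCOS 1 to 4. The groups did not overlap (log2 fold change -0.85, standard error 0.10, adjusted p = 5.16e-04). Nos3, endothelial nitric oxide synthase, named after its values were seen, fell by 1.09 (standard error 0.10, adjusted p = 9.20e-05). Vwf, von Willebrand factor, rose by 0.41 (standard error 0.11, adjusted p = 0.0208), a call lost without Control 2 or PCOS 4, and the number higher was 0 without Control 2 or PCOS 4 and 1 without Control 1, Control 4 or PCOS 1. Smooth muscle and pericyte genes gave 7 lower and 3 higher of 23. The pericyte genes Pdgfrb and Notch3, both receptors, fell by 0.67 (standard error 0.08, adjusted p = 6.55e-04) and 1.22 (standard error 0.10, adjusted p = 5.34e-05). The contractile genes Acta2 (117 to 305 FPKM in the control and 162 to 183 FPKM in the PCOS libraries), Myh11 and Des had overlapping groups, with Control 3 the highest of the 8 libraries for all of them, and Myocd, a coactivator of contractile genes, rose by 1.15 (standard error 0.13, adjusted p = 4.03e-04).

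Ligands of the Notch pathway, which acts between vessel cells, were lower, Jag1 by 0.89 (standard error 0.22, adjusted p = 0.0175) and Jag2 by 1.14 (standard error 0.08, adjusted p = 3.59e-05). The receptor gene Notch3, given above, fell by 1.22 as well. Heyl and Hes1, genes that the pathway induces, did not fall with them. Heyl rose by 0.53 (standard error 0.13, adjusted p = 0.0176), and Hes1 had overlapping groups (log2 fold change 0.26, adjusted p = 0.507 from limma). In all, 9 of 25 Hedgehog and Notch genes were lower and 3 higher, and the number lower was 5 without Control 2, Control 3, PCOS 2, PCOS 3 or PCOS 4, the number higher 5 without Control 3.

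Matrix genes were lower in 17 of 37 cases and higher in 1, with a median of -0.36. Fn1, fibronectin, was 42.9, 38.8, 34 and 30.2 FPKM in Control 1 to 4 and 11.1, 14.2, 8.3 and 10.7 FPKM in PCOS 1 to 4. The lowest control was 2.12 times the highest PCOS value (log2 fold change -1.64, standard error 0.16, adjusted p = 1.66e-04). Col4a1, a chain of the basement membrane collagen, fell by 1.08 (standard error 0.13, adjusted p = 4.79e-04), and Loxl2, which crosslinks that collagen, by 1.84 (standard error 0.20, adjusted p = 3.27e-04). The fibrillar collagen genes were less separated: Col3a1 fell by 1.05 (standard error 0.20, adjusted p = 0.0055), and Col1a1 by 0.66 (standard error 0.20, adjusted p = 0.0371) with overlap and a call lost without Control 1, Control 2, Control 3, PCOS 1, PCOS 2, PCOS 3 or PCOS 4. Ogn, the small proteoglycan osteoglycin, was the member that rose, by 1.33 (standard error 0.24, adjusted p = 0.00395). Of 28 matrix proteases and their inhibitors, 10 were lower and 4 higher. Timp2, an inhibitor of matrix metalloproteinases, was 137, 147, 149 and 128 FPKM in Control 1 to 4 and 371, 380.0, 325 and 389 FPKM in PCOS 1 to 4. It rose by 1.38 with narrow groups (standard error 0.09, adjusted p = 2.10e-05). Mmp12, the elastase of macrophages, fell by 1.8 (standard error 0.38, adjusted p = 0.00821). Integrin genes, the cell's matrix receptors, gave 8 lower and 2 higher of 26 genes whose symbols begin like integrins. Itga6, a laminin receptor, fell by 1.28 (standard error 0.09, adjusted p = 3.05e-05), while Itga9, a receptor of tenascin and other ligands, rose by 1.17 (standard error 0.12, adjusted p = 1.84e-04).

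Genes that present peptides on MHC class I were higher in PCOS ovaries. Of 25 tested genes of antigen presentation, 12 were higher and none was lower with limma (0 at an unadjusted p under 0.05). All 12 belonged to the 15 genes outside class II, and none of the 10 class II genes passed with limma (0 higher and 0 lower at an unadjusted p under 0.05). The promoters of 4 of the higher genes are printed, picked after the search because they hold the motif marked in them, each as the 250 bases before the start of the gene in RefSeq (GRCr8), 5′ to 3′ on the gene's strand, with capitals for a pair of GAAA with any 2 bases between them, or the reverse complement, the core of the interferon-stimulated response element.
B2m, chr3:129549080-129549329, strand plus: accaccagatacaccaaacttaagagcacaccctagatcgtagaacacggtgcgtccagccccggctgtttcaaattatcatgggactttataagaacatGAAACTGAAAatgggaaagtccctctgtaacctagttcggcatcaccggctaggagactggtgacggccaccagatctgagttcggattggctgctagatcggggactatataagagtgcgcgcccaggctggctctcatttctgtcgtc
Psmb10, chr19:50743293-50743542, strand minus: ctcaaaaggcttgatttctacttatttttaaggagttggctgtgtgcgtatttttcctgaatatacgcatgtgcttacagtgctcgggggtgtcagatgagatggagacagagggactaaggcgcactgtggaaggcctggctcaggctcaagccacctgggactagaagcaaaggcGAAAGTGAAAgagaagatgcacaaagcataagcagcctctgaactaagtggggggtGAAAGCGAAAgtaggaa
Tap1, chr20:4668544-4668793, strand minus: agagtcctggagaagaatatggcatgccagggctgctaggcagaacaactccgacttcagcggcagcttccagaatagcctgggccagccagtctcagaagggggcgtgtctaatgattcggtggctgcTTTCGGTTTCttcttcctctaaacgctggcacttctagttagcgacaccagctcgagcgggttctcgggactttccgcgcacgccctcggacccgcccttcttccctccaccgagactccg
Tapbp, chr20:4967878-4968127, strand minus: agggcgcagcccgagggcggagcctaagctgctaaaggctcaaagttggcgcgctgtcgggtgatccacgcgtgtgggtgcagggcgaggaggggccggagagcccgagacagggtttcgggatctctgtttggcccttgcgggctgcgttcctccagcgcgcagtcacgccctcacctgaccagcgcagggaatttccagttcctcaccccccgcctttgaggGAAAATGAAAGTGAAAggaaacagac
On either strand, the motif was in 6 of the 11 windows found for the higher genes, in 1 of the 11 windows of the genes that did not pass and in 3.41% of all 33469 windows of this length. In Tapbp the 2 matches overlap. The windows of Psmb8, Psmb9 and RT1-CE5, which were higher as well, held no match. These matches are descriptions of letters, not of bound sites. The SF-1 binding motif AAGGTCA, searched in the same way, was in none of the 5 windows found for the higher theca genes and none of the 5 found for the lower luteal genes, and in 3.99% of all windows. At that share, so few windows could not show a lack of the motif, and variants of this exact form were not searched.

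B2m, the invariant light chain of class I molecules, was 242, 229, 215 and 221 FPKM in Control 1 to 4 and 456, 544, 505 and 497 FPKM in PCOS 1 to 4. The lowest PCOS value was 1.88 times the highest control value (log2 fold change 1.14, standard error 0.08, adjusted p = 4.02e-05). The 3 catalytic subunits of the immunoproteasome, which cuts peptides for class I, rose together. Psmb8 was 32.3, 18.9, 23 and 25.8 FPKM in Control 1 to 4 and 91.9, 73.8, 93.7 and 84.5 FPKM in PCOS 1 to 4, and its lowest PCOS value was 2.28 times its highest control value (log2 fold change 1.76, standard error 0.15, adjusted p = 9.25e-05). Psmb9 and Psmb10 rose by 1.49 (standard error 0.18, adjusted p = 5.61e-04) and 1.05 (standard error 0.11, adjusted p = 2.56e-04). Among all 37 proteasome genes these were the only ones higher with limma, while 7 were lower (4 without PCOS 2, PCOS 3 or PCOS 4), such as Psmd14, a subunit of the lid, by 0.48 (standard error 0.10, adjusted p = 0.00702). Tap1, the peptide transporter, named after its values were seen, rose by 0.66 (standard error 0.13, adjusted p = 0.00567). RT1-N3 and RT1-CE5, class I heavy chain genes, rose by 1.51 and 1.5, but genes of this family are nearly identical and the counting could have split their reads. The class II genes Cd74 and RT1-Da were 256 to 281 FPKM in the control and 180.2 to 340.5 FPKM in the PCOS libraries and 90.9 to 101 FPKM in the control and 59.3 to 118 FPKM in the PCOS libraries, with overlapping groups (adjusted p = 0.953 and 0.771 from limma).

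**Figure D4:**
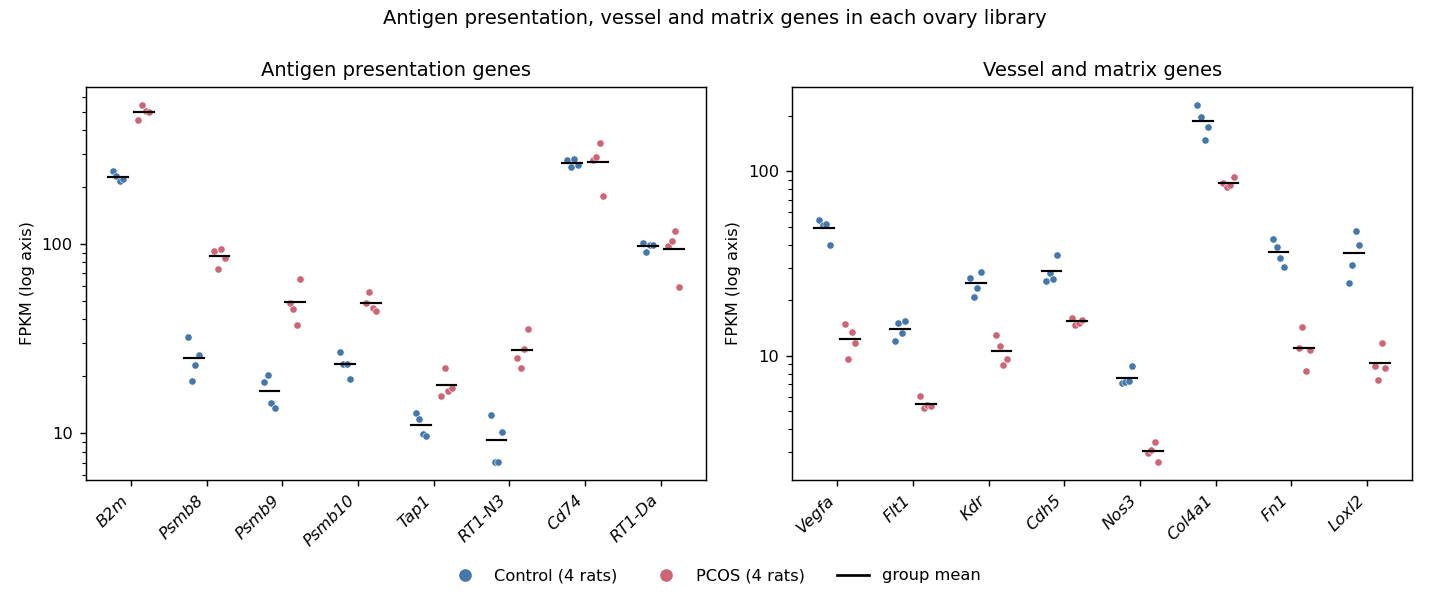
FPKM on a log axis of 8 antigen presentation genes (left) and 8 vessel and matrix genes (right), with 1 point per rat, blue for control and red for PCOS, and a black bar for the group mean. The class I genes lie higher in PCOS, the class II genes Cd74 and RT1-Da overlap between the groups, and the 8 genes on the right lie lower in PCOS without overlap.

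Markers of immune cells were measured beside these genes. Of 17 lymphocyte genes, 5 were higher and 1 lower. The cytotoxic granule genes Gzma and Nkg7 rose by 1.85 (standard error 0.25, adjusted p = 0.00103) and 1.03 (standard error 0.22, adjusted p = 0.010). Gzma was 0.624, 0.734, 0.526 and 0.365 FPKM in Control 1 to 4 and 2.51, 7.6, 5.6 and 3.97 FPKM in PCOS 1 to 4, low in every library and higher in each PCOS library. Cd79al, the match for the B cell gene Cd79a on the list, was 3.61 to 5.68 FPKM in the control libraries. In the PCOS libraries it was 10.8 to 20.1 FPKM (log2 fold change 1.66, standard error 0.19, adjusted p = 3.43e-04). The B cell gene Cd79b of the same list did not rise with it. Its mean was 0.226 FPKM in the control and 0.0999 FPKM in the PCOS libraries, under the limit of 1 FPKM, and it was not tested. The pan-leukocyte gene Ptprc and the T cell gene Cd3e had overlapping groups (adjusted p = 0.684 and 0.195 from limma). Jchain, the joining chain of secreted antibodies, fell by 2.29 (standard error 0.63, adjusted p = 0.0272), with 95.9 FPKM in Control 3 against 10.2 to 11.9 FPKM in the other controls. Its log2 fold change was -1.54 without Control 3, and the call was lost without PCOS 1, PCOS 2, PCOS 3 or PCOS 4. Of 20 macrophage genes, 2 were higher, among them Csf1r, the receptor that macrophages need to survive (log2 fold change 0.45, standard error 0.09, adjusted p = 0.00652), and 1 was lower, the lysosomal glycoprotein gene Gpnmb (log2 fold change -1.63, standard error 0.35, adjusted p = 0.00912). The number lower was 2 without Control 3 and 5 without Control 4. Interferon response genes gave 4 higher and none lower of 24 with limma (0 lower at an unadjusted p under 0.05), and the number higher was 2 without Control 2 and 9 without Control 1. Gbp2, a guanylate-binding protein induced by interferon gamma, rose by 0.80 (standard error 0.12, adjusted p = 0.00139), while Isg15 and Irf7 did not pass (adjusted p = 0.186 and 0.556 from limma). Isg15 passed in 1 fit with a library left out.

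Among secreted immune factors, Ccl11, which encodes eotaxin, the chemokine of eosinophils, was 2.59, 2.8, 2.0 and 1.29 FPKM in Control 1 to 4 and 45.9, 77.4, 96.4 and 26.5 FPKM in PCOS 1 to 4. The PCOS values spread 3.64-fold, and the lowest was 9.45 times the highest control (log2 fold change 4.17, standard error 0.37, adjusted p = 1.00e-04). The eosinophil and mast cell genes Prg2 and Cpa3 were under the limit of 1 FPKM and were not tested. C7, a late complement component, was 40.3, 38.1, 32.8 and 42.6 FPKM in Control 1 to 4 and 278, 243, 264 and 208 FPKM in PCOS 1 to 4. Its rise of 2.66 had a small error (standard error 0.11, adjusted p = 5.11e-06). C4b rose by 0.92 (standard error 0.13, adjusted p = 0.00101), F3, the tissue factor that starts coagulation, by 1.32 (standard error 0.15, adjusted p = 3.68e-04), and Plat and Plaur, the plasminogen activator and the receptor of its relative urokinase, fell by 1.75 (standard error 0.33, adjusted p = 0.00475) and 1.66 (standard error 0.22, adjusted p = 8.24e-04). A2m, a protease inhibitor made by the rat decidua and corpus luteum, fell by 2.38 (standard error 0.59, adjusted p = 0.0166). In all, 8 complement and coagulation genes were higher and 8 lower of 26. Cxcr4, the chemokine receptor that is induced by low oxygen, was 31.6, 28.6, 22.4 and 38.1 FPKM in Control 1 to 4 and 7.02, 7.73, 8.84 and 6.62 FPKM in PCOS 1 to 4, and its lowest control was 2.54 times its highest PCOS value (log2 fold change -1.85, standard error 0.15, adjusted p = 7.48e-05).

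Components of the insulin-like growth factor (IGF) system changed at each level. The ligand gene Igf1 was 39.9, 45.5, 40.6 and 43.5 FPKM in Control 1 to 4 and 165, 169, 170.3 and 129.6 FPKM in PCOS 1 to 4. The groups were narrow and far apart (log2 fold change 1.87, standard error 0.10, adjusted p = 1.02e-05). The receptor gene Igf1r fell by 0.92 (standard error 0.11, adjusted p = 5.46e-04), and Igf2r, the receptor that clears IGF-2 and carries lysosomal enzymes, by 1.41 (standard error 0.09, adjusted p = 2.10e-05). Igfbp2, a binding protein of theca and stroma, was 29.6, 28.2, 42.2 and 40.9 FPKM in Control 1 to 4 and 348, 337, 223 and 313 FPKM in PCOS 1 to 4. The lowest PCOS value was 5.3 times the highest control (log2 fold change 3.08, standard error 0.18, adjusted p = 1.47e-05). Igfbp3 was 18.1, 13.5, 46.1 and 51.5 FPKM in Control 1 to 4 and 4.78, 4.97, 4.91 and 5.97 FPKM in PCOS 1 to 4, which separated a lower and a higher pair of controls, both above all PCOS values (log2 fold change -2.23, standard error 0.39, adjusted p = 0.00362). Of 16 IGF genes in all, 5 were higher and 3 lower. Among 49 genes of transforming growth factor beta and bone morphogenetic protein signals, 10 were higher and 7 lower. Bmp6, a ligand of oocytes and granulosa cells, rose from a range of 6.54 to 9.14 FPKM in the control to one of 20.8 to 24.4 FPKM in the PCOS libraries (log2 fold change 1.41, standard error 0.10, adjusted p = 3.45e-05), Tgfb1 fell by 0.73 (standard error 0.12, adjusted p = 0.00292), and Id2, a target of these signals, fell by 1.53 (standard error 0.23, adjusted p = 0.00149). Of 32 Wnt genes, 5 were higher and 6 lower. The ligand gene Wnt6 rose by 1.82 (standard error 0.21, adjusted p = 4.16e-04), and Wnt2b fell by 1.83 (standard error 0.34, adjusted p = 0.00455).

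Transporters of amino acids were among the highest rises of the solute carriers, of which 30 were higher and 45 lower among 215 tested. Slc7a11 (ENSRNOG00000010210), the cystine importer that feeds glutathione synthesis, was 0.546, 0.707, 0.654 and 0.453 FPKM in Control 1 to 4 and 27.8, 14.6, 51.1 and 22.9 FPKM in PCOS 1 to 4. It was under 1 FPKM in every control, and the PCOS values spread 3.51-fold (log2 fold change 4.11, standard error 0.31, adjusted p = 4.84e-05). Slc7a5, the transporter of large neutral amino acids, was 15.9, 10.9, 15.1 and 14.4 FPKM in Control 1 to 4 and 285, 117, 128 and 205 FPKM in PCOS 1 to 4. Its lowest PCOS value was 7.33 times its highest control (log2 fold change 3.53, standard error 0.27, adjusted p = 5.17e-05). Slc3a2, the heavy chain that both transporters need, and Slc7a8, a relative of Slc7a5, were named after their values were seen and rose by 1.22 (standard error 0.10, adjusted p = 6.77e-05) and 1.6 (standard error 0.13, adjusted p = 7.17e-05). Slc1a3, a glutamate transporter, rose by 2.29 (standard error 0.20, adjusted p = 9.20e-05). Chac1, a glutathione-degrading enzyme, fell by 1.06 (standard error 0.18, adjusted p = 0.00343). Asns, asparagine synthetase, was named after its values were seen. It was 14.9, 13.9, 7.45 and 5.4 FPKM in Control 1 to 4 and 40.5, 15.1, 13.7 and 21.7 FPKM in PCOS 1 to 4. Its groups overlapped and it did not pass (log2 fold change 1.03, standard error 0.39, adjusted p = 0.0838 from limma). The folding and stress list to which Chac1 and Asns belong had 1 gene higher and 2 lower of 26. Falls among the solute carriers included Slc51a, a transporter of bile acids and steroid sulfates, which fell by 3.13 (standard error 0.25, adjusted p = 5.70e-05), and Slc6a7, a proline transporter, by 3.0 (standard error 0.21, adjusted p = 3.37e-05).

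Glutathione and antioxidant genes were higher in 14 and lower in 6 of 39 cases. The alpha class glutathione transferases rose together, Gsta2 by 2.35, Gsta3 by 2.31 and Gsta5 by 2.45, but they are similar in sequence and reads could have been shared among them. Gsta3, which also isomerizes steroids, was 16, 10.5, 9.6 and 14.4 FPKM in Control 1 to 4 and 68.3, 57.7, 72.1 and 63 FPKM in PCOS 1 to 4. The groups did not overlap (log2 fold change 2.31, standard error 0.16, adjusted p = 2.92e-05). Sod3, extracellular superoxide dismutase, rose by 1.16 (standard error 0.12, adjusted p = 2.37e-04). Gstt1, Gpx1 and Prdx5, a glutathione transferase and enzymes that reduce peroxides, fell by 1.35 (standard error 0.11, adjusted p = 7.80e-05), 1.08 (standard error 0.13, adjusted p = 5.91e-04) and 1.07 (standard error 0.08, adjusted p = 3.69e-05). Of 17 aldehyde and alcohol dehydrogenases, 9 were higher and 3 lower. Aldh1b1 rose by 1.66 (standard error 0.20, adjusted p = 4.66e-04), and Aldh3b1 was 144, 69.1, 32.9 and 54.8 FPKM in Control 1 to 4 and 8.66, 9.14, 12.2 and 10.4 FPKM in PCOS 1 to 4. Its PCOS values were close together, below controls that spread 4.38-fold (log2 fold change -2.59, standard error 0.38, adjusted p = 0.00136). Cytochrome P450 genes were higher in 10 and lower in 3 of 24 cases, and Cyp4f4, of the family that hydroxylates fatty acids and eicosanoids, rose by 2.8 (standard error 0.12, adjusted p = 5.11e-06), from a range of 0.0955 to 0.279 FPKM in the control to one of 6.05 to 8.31 FPKM in the PCOS libraries.

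**Figure D5:**
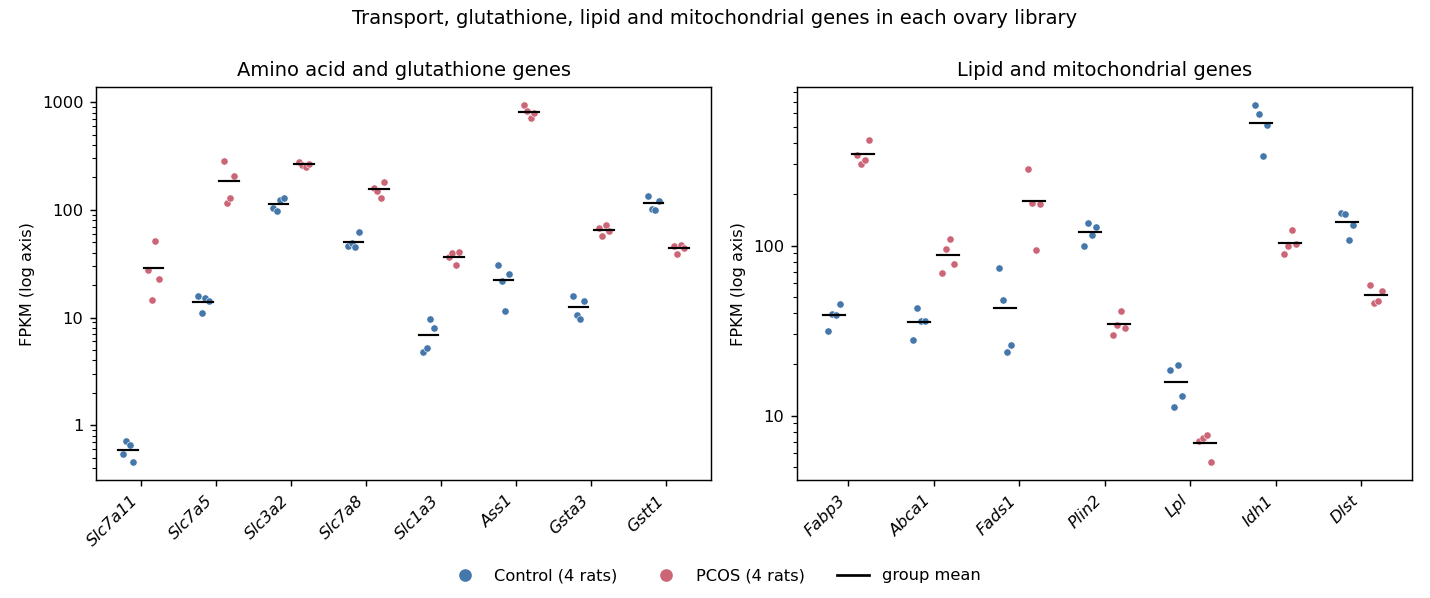
FPKM on a log axis of 8 amino acid and glutathione genes (left) and 7 lipid and mitochondrial genes (right), with 1 point per rat, blue for control and red for PCOS, and a black bar for the group mean. On the left all but Gstt1 lie higher in PCOS, and on the right the first 3 genes lie higher and the last 4 lower, without overlap in any of the 15 genes.

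Potassium channel genes, which set the membrane potential, were higher in 12 and lower in 6 of 36 cases, the number lower being 3 without Control 4, PCOS 2 or PCOS 4. Kcnh1, a voltage-gated channel, was 11.5, 10.9, 14.1 and 13 FPKM in Control 1 to 4 and 56.8, 43.4, 39.1 and 45 FPKM in PCOS 1 to 4. Its lowest PCOS value was 2.77 times its highest control (log2 fold change 1.81, standard error 0.12, adjusted p = 3.05e-05). Kcnj8, the channel of pericytes that is closed by ATP, fell by 1.36 (standard error 0.08, adjusted p = 1.47e-05). No subunit of the vacuolar proton pump was higher with limma (0 at an unadjusted p under 0.05) and 7 of 17 were lower. Atp6v1b2, a catalytic-ring subunit, fell by 0.85 (standard error 0.07, adjusted p = 7.86e-05).

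Zinc finger genes, many of which encode DNA-binding proteins, were higher about as often as all genes and seldom lower. Of 233 tested, 29 (12.4%) were higher and 5 (2.15%) lower, against 11.9% and 15.4% of all genes, with a median of 0.13. These changes were small, as for Zfp189, which rose by 0.74 (standard error 0.08, adjusted p = 2.34e-04). The number higher was 17 without PCOS 2 and 19 without PCOS 1 or PCOS 4, and the number lower 2 without PCOS 2, PCOS 3 or PCOS 4 and 3 without Control 2 or Control 4. Cytosolic ribosomal protein genes showed a like split, with 12 higher and 2 lower of 87 and a median of 0.19. Their number higher was 6 without PCOS 2 or PCOS 4, 7 without Control 2 and 19 without Control 1, and their number lower 1 without Control 1, Control 2, Control 4, PCOS 1, PCOS 2 or PCOS 4. Rps24, which has near-identical copies in the genome, fell by 1.26 (standard error 0.32, adjusted p = 0.0186) and was 422, 172, 287 and 332 FPKM in Control 1 to 4 and 70.6, 139.9, 131 and 159 FPKM in PCOS 1 to 4, a call lost without Control 4. Histone genes had 7.69% of 39 members called, and the splicing factors 13.7% of 51, beside 27.4% of all genes. These small counts moved by up to 3 genes with 1 library left out.

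The number of cell cycle genes called depended on the libraries. None of 40 was higher with limma (0 at an unadjusted p under 0.05) and 8 were lower, with a median of -0.44, and the number lower was 2 without PCOS 4, 3 without PCOS 3, 4 without Control 2, Control 4, PCOS 1 or PCOS 2, 5 without Control 1 and 23 without Control 3. Mki67, the proliferation marker, was 13.3, 11.3, 4.37 and 8.86 FPKM in Control 1 to 4 and 6.79, 7.33, 4.71 and 5.98 FPKM in PCOS 1 to 4. Control 3 was below all PCOS libraries and the other controls above all of them (adjusted p = 0.26 from limma). With single libraries left out, Mki67 passed in 1 fit, and its log2 fold change ran from -0.75 to -0.28. Cdk1, the kinase of mitosis, named after its values were seen, was lowest among controls in the same library, at 10.2 FPKM, and fell by 0.73 (standard error 0.22, adjusted p = 0.0374), a call lost without Control 1, Control 2, Control 4, PCOS 1, PCOS 2, PCOS 3 or PCOS 4 and kept without Control 3. Ccnd1, cyclin D1, and Cdkn1a, the inhibitor p21, both fell, by 0.72 (standard error 0.15, adjusted p = 0.00863) and 1.09 (standard error 0.24, adjusted p = 0.0101). Immediate early genes, which respond within minutes to hormones and to handling of the tissue, were lower in 7 of 24 cases and higher in none with limma (0 at an unadjusted p under 0.05). The number lower was 4 without PCOS 1, PCOS 2 or PCOS 3. Dusp1, a phosphatase of this class, fell by 1.63 (standard error 0.29, adjusted p = 0.00353), with Control 3 at 117 FPKM and the other controls at 47.3 to 57.4 FPKM. Fos, the prototype of the class, was 17.9, 7.7, 84.6 and 27.4 FPKM in Control 1 to 4 and 5.65, 8.62, 21.9 and 14.9 FPKM in PCOS 1 to 4, with overlap between the groups (adjusted p = 0.285 from limma).

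Among the larger changes outside these lists, Ass1 (ENSRNOG00000008837), argininosuccinate synthase of the urea cycle and of arginine synthesis, was 30.9, 21.9, 11.4 and 25.3 FPKM in Control 1 to 4 and 943, 829, 708 and 789 FPKM in PCOS 1 to 4. Its lowest PCOS value was 22.9 times its highest control (log2 fold change 5.2, standard error 0.26, adjusted p = 7.80e-06). Ddc, the decarboxylase that makes dopamine and serotonin, was 0.242, 0.139, 0.194 and 0.304 FPKM in Control 1 to 4 and 28.6, 19.3, 10.4 and 19.1 FPKM in PCOS 1 to 4. Its lowest PCOS value was 34.3 times its highest control (log2 fold change 3.98, standard error 0.25, adjusted p = 1.89e-05). Svs5, a seminal vesicle secretory protein gene, was 0, 0, 1.44 and 3.76 FPKM in Control 1 to 4 and 117, 99, 39.7 and 57 FPKM in PCOS 1 to 4 and was listed at 0 in 2 controls (log2 fold change 5.3, standard error 0.55, adjusted p = 2.24e-04). Myh6, the alpha myosin heavy chain of the heart, rose by 3.68 (standard error 0.43, adjusted p = 4.16e-04), and Serpina3n, a serine protease inhibitor of the acute phase, by 3.59 (standard error 0.34, adjusted p = 1.43e-04). Sdc1, a heparan sulfate proteoglycan, was 98.6, 103, 178 and 168 FPKM in Control 1 to 4 and 12.3, 11.7, 13.9 and 11 FPKM in PCOS 1 to 4. Its lowest control was 7.11 times its highest PCOS value (log2 fold change -3.34, standard error 0.20, adjusted p = 1.62e-05). Pla2g1b, a secreted phospholipase, was 98.5, 68.4, 25.8 and 116 FPKM in Control 1 to 4 and 7.41, 3.49, 7.82 and 6.48 FPKM in PCOS 1 to 4. Control 3 was the lowest control and still above all PCOS values (log2 fold change -3.27, standard error 0.44, adjusted p = 9.26e-04). Chrnb4, a nicotinic receptor subunit, fell by 3.21 (standard error 0.21, adjusted p = 2.19e-05), and Aqp12a, an aquaporin, by 3.14 (standard error 0.58, adjusted p = 0.00454), with a log2 fold change of -3.77 without Control 3. Further genes of this rank were Bpifb6 and Klhdc8a, which fell by 3.14 (standard error 0.20, adjusted p = 2.27e-05) and 2.98 (standard error 0.20, adjusted p = 2.90e-05). All of these calls were kept with each of the 8 libraries left out in turn.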

How the data were processed

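Ovary RNA from 4 control and 4 PCOS rats, 1 library per rat, was compared. The authors' deposited table gives FPKM per transcript line, already normalised for transcript length and mapped fragments. The paper's methods name HISAT2 and featureCounts, while the submitters' processing notes list STAR 2.5.1b and HTSeq 0.6.0, and the genome build is not given in the sources used here. The table's columns of the authors' own fold changes and p-values were not used. Its 26928 lines were reduced to 19730 genes, of which 25 carried names turned into dates. Since the table holds FPKM and not counts, edgeR was not run. After genes with a mean under 1 FPKM had been removed, log2(FPKM + 1) was fitted in R 4.3.3 by limma 3.58.1 (empirical Bayes with variance trend, 2-sided, Benjamini-Hochberg over 13491 genes, threshold 0.05). Tables and plots were made with Python 3.11.15, pandas 2.3.3 and matplotlib 3.10.9. The fit was tested on 10 simulated versions of this comparison over 13491 genes. In each version 200 genes were given a log2 change of 1.5. Of these, leaving out genes with a low control mean, the fit called 94.1%, and 5.09% of all its calls were false. Most genes called in the real data changed by less, so the share of 94.1% does not describe them. Replicate numbers did not pair the samples, and no block was used. Exact read depth is unknown, since only FPKM were given, and the number of rats limits the precision.

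Members and gene lists were chosen with earlier results of these data known. Of 745 list symbols, 24 were not matched and were not analysed here. Families were taken by the start of the symbol. The genes named are the key members of each list, the 3 largest non-overlapping rises and falls of each list or family, and ranks 4 to 12 of rise and fall over all genes. Any other gene is said to be named after its values were seen. Some genes that this rule covers are not reported here.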

Additional observations from a re-analysis of the deposited data

Results flagged for a closer look

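A library was picked out where its distance to the nearest of the other 3 of its group, as a share of the group's range, passed Dixon's critical value. Chance does this in about 1 in 20 groups, and over the genes described above 18 of 340 groups were picked out where 17 would be expected, 7 of them through Control 3. Control 3 was far from the other controls for Plat (86.0 FPKM against 30.9 to 37.2), Krt18 (38.1 against 0.798 to 3.01), Dusp1 (116.8 against 47.3 to 57.4), Jchain (95.9 against 10.2 to 11.9), Pgr (13 against 0.213 to 0.567), Tnfaip6 (9.76 against 1.13 to 1.22) and Des (78.8 against 19.1 to 27.2). These include a keratin, an antibody chain and a muscle filament, beside the oviduct and epithelial sums that were also highest in this library.

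Other control values that stood apart were Nos3 in Control 4 (8.77 FPKM against 7.12 to 7.29) and Mmp12 in Control 2 (17.2 against 3.92 to 5.56). In the PCOS group, Igf1 (129.6 FPKM against 165.4 to 170.3) and Igfbp3 (5.97 against 4.78 to 4.97) stood apart in PCOS 4. Wnt6 (6.90 against 13.5 to 14.7), Runx2 (10.3 against 5.44 to 5.88) and Klhdc8a (11.2 against 7.62 to 8.17) did so in PCOS 3. Irf7 (16.3 against 8.39 to 9.31), Jchain (4.05 against 2.85 to 2.98) and Mmp12 (0.643 against 1.5 to 1.53) did so in PCOS 2, and Ndufa5 (43.1 against 53.3 to 53.8) in PCOS 1.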

How the results depend on the processing

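The number of genes higher in PCOS was 1610 and the number lower 2084, and with a minimum 2-fold change added to the test's threshold they were 444 and 472, since fewer genes can pass both. A pseudocount of 0.1 gave 1610 and 2115, no filter on low values 1716 and 2140, a mean of at least 5 FPKM 1321 and 1675, all 12 libraries in 1 model 1637 and 2085, library weights 1984 and 2802, and no variance trend 1580 and 2028. Median-ratio scaling gave 1913 and 1963, which moved the higher genes from 43.6% to 49.4% of the calls. Leaving out 1 library gave 1230 to 1664 higher and 1523 to 2273 lower, and without Control 3, 88.0% of the higher and 90.5% of the lower calls were kept. No gene was called in the opposite direction under any of these settings. The log2 fold change of Tnfaip6 was -0.24 with all libraries, 0.09 with library weights, and ran from -0.44 without Control 4 to 0.33 without Control 3, where it passed the threshold. The cause was not tested.

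With the replicate number as a replicate block, 1256 genes were higher and 1670 lower. The deviations of same-numbered libraries correlated by 0.0243, -0.00194, 0.0233 and -0.0332, so the numbers name the samples and do not pair them. Read depth was close between libraries, and 4 rats per group limit what small changes could be called. Genes under 1 FPKM were not tested.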

Other observations

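Further gene groups were measured that the comparisons above leave out. Of 15 cytosolic heat shock genes, 5 were lower and 1 was higher, with a median of -0.41, and the number lower was 3 without Control 2, PCOS 1, PCOS 2 or PCOS 3. Of 19 fatty acid synthesis genes, 4 were higher and 2 lower, the latter being 1 without PCOS 1, PCOS 2, PCOS 3 or PCOS 4. Of 14 steroid hormone receptors, 2 were higher and 1 lower. The number higher was 0 without Control 1, Control 2, PCOS 1, PCOS 2 or PCOS 4 and 1 without Control 3 or PCOS 3, and the number lower 2 without Control 3. The semaphorins and plexins, guidance signals of axons and vessels, gave 4 higher and 6 lower of 25, the interleukins and their receptors 8 and 6 of 35, the chemokines and their receptors 6 and 5 of 25, and the tubulins 3 and 5 of 16. The number of chemokine genes lower was 2 without PCOS 2 or PCOS 3 and 3 without Control 2 or PCOS 1, and the number of tubulins higher 1 without Control 2, PCOS 2 or PCOS 4. None of the 7 blood cell genes or of the 8 oviduct genes passed in either direction with limma (at an unadjusted p under 0.05, 0 and 0 were higher and 0 and 2 lower), and of 13 epithelial genes 1 was higher and 1 lower. The number of these lower was 1 without Control 1 for the oviduct and 1 without PCOS 4 for the blood cell genes, and the number of epithelial genes higher was 0 without Control 1, Control 2, Control 4, PCOS 1, PCOS 2 or PCOS 4.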
